A study of Mus musculus with 24 samples.

Results

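Cirbp and Rbm3, a pair of genes for cold-inducible RNA-binding proteins, were followed in the dorsal hippocampus of 24 mice. They are the 2 members taken by gene symbol from a table of 19661 genes, and they were selected on the RPKM values of Cirbp, which were lower after training, so the training contrast is described here and not tested for them. CIRBP and RBM3 are small proteins with an RNA recognition motif and a glycine-rich tail, and they bind and stabilise other RNAs. In mammalian cells both are induced by mild cooling and repressed by warming, and in mouse brain RBM3 is known for its part in synapse maintenance after cooling, while CIRBP is known for following the daily rhythm of body temperature and acting on clock gene transcripts. DNAJB1, the co-chaperone set beside them here, has the opposite behaviour: its gene is a target of heat shock factor and is induced by heat.

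Tissue came from both sides of the dorsal hippocampus, and RNA was sequenced in 4 groups of 6 animals. Wild type mice (C57BL/6J) and mice heterozygous for Baf53b, which carry B6J.129S6-Actl6b<tm1Grc> as strain background, were either left in the home cage or killed 30 min after training in Object Location Memory. Baf53b is the neuron-specific actin-related subunit of the BAF chromatin remodelling complex, encoded by Actl6b. Genotype and strain background cannot be told apart, and the home cage is the control for every aspect of training, handling included. The replicate numbers are taken as separate animals, and neither age, sex nor body temperature is given in the labels.

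The deposited values are RPKM, read counts scaled to gene length and to the reads of the library. Recovered depth ran from 28.4 to 47.0 M reads per library with a median of 34.5 M, and intervals and errors below rest on the spread between animals. Actl6b averaged 51.3 ± 1.26 RPKM (SD, n = 6) in wild type and 30.0 ± 1.44 in heterozygous home cage animals, and 50.8 ± 2.65 and 28.3 ± 1.47 after training, in accord with every genotype label. Markers of CA1, dentate gyrus and CA3 were present in all groups. Their summed levels ran from 180 to 258, 52.4 to 146 and 80.1 to 114 RPKM in the same order. Choroid plexus transcripts set 6 libraries apart, with Ttr at 1213 to 4572 RPKM against 7.78 to 288 in the other 18, and they fell 1, 1, 2 and 2 to wild type home cage, wild type trained, heterozygous home cage and heterozygous trained animals. Y-linked Ddx3y was at 9.81 to 12.7 RPKM in 14 animals and at 0.0134 to 0.0499 in the other 10. Animals with Y-linked transcripts numbered 3 of 6 in each group except the heterozygous home cage group, where they were 5 of 6.

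Cirbp lies at chr10:79630586-79634398 in mm9, the build of the files, and was well expressed, with a mean of 27.2 RPKM that exceeded 80.51% of the 12399 genes tested. Rbm3 lies at chrX:7716101-7722928 and was weakly expressed, with a mean of 1.90 RPKM that exceeded 10.05% of them. Total reads of these genes, which set the counting precision, could not be recovered. In reads per kilobase, Cirbp had 676 to 1521 in a library and Rbm3 46.0 to 80.6. Cirbp was thus 12.8 to 16.6 times as abundant per length as Rbm3, by the group means of the ratio. Rbm3 values are also less certain in origin: of its 3670 distinct stretches of 50 bases in annotated transcripts, 13.3% occur in other genes, foremost in the processed pseudogenes Rbm3-ps (8.58%) and Gm10156 (6.95%). None of the 1363 stretches of Cirbp do. The sources used here do not say how reads matching several places were counted. The library kit keeps no strand, and 2900002K06Rik overlaps Rbm3 by 375 bases at a mean of 0.336 RPKM.

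The promoter of Cirbp is shown because a motif for the response to mild cold, TCCCCGCC, was described in the mouse gene. The 250 bases before the first listed start in the RefSeq table (GRCm38.p6, chr10:80167589-80167838, plus strand) run as follows, with the motif in capitals.
Cirbp promoter: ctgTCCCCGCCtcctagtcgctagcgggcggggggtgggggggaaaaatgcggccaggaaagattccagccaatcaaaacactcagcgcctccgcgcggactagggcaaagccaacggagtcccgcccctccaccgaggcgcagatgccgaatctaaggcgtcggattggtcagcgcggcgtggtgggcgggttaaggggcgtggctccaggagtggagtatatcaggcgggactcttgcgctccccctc
The motif starts at base -247 counted from the start. On both strands, TCCCCGCC occurs in 4.70% of 27025 promoter windows of this length. The Cirbp window also holds 3 GC boxes (GGGCGG, in 32.9% of windows) and 2 CCAAT boxes (CCAAT, in 34.5%), none of which overlaps the capitals. It holds no GAANNTTC, a core of the heat shock element present in 6.78% of windows, and its GC content of 65.6% compares with a median of 52.0%. The Dnajb1 window of the same length has neither TCCCCGCC nor GAANNTTC. These are matches of letters only, and the builds of the windows and of the expression table differ.

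Cirbp RNA was lower in trained than in home cage animals of both genotypes, by about the same proportion, and Rbm3 RNA was at nearly the same level in all 4 groups. In wild type, Cirbp ran from 24.5 through a median of 29.1 to 32.8 RPKM in the home cage and from 19.7 through 23.8 to 26.5 after training. In heterozygous animals it ran from 25.5 through 32.5 to 33.8 in the home cage and from 22.9 through 23.9 to 27.3 after training. In each genotype 4 of the 6 trained animals lay below the lowest home cage animal, and the groups overlapped in the others. These counts describe the values Cirbp was chosen on, and the share of all genes doing likewise was not counted. The group means were 29.0 ± 3.33 and 23.5 ± 2.49 RPKM in wild type and 31.5 ± 3.08 and 24.6 ± 1.78 in heterozygous animals (SD, n = 6), so that trained means were 0.810 and 0.783 of home cage means. On the log2(RPKM + 0.5) scale the fitted differences were -0.30 ± 0.078 (SE) in wild type, -0.34 ± 0.078 in heterozygous animals and -0.32 ± 0.055 averaged over genotypes. Over all 12399 genes 0.911% passed the test as lower after training in the averaged comparison (limma, adjusted p under 0.05), and by size Cirbp was 3rd among those 113 genes, which is the result it was chosen for. In the fit without covariates it was not among the genes called in wild type alone, nor in the averaged comparison without the 6 choroid plexus rich libraries. In bulk tissue, less RNA per cell and fewer cells of a type that holds the RNA cannot be told apart.

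**Figure D1:**
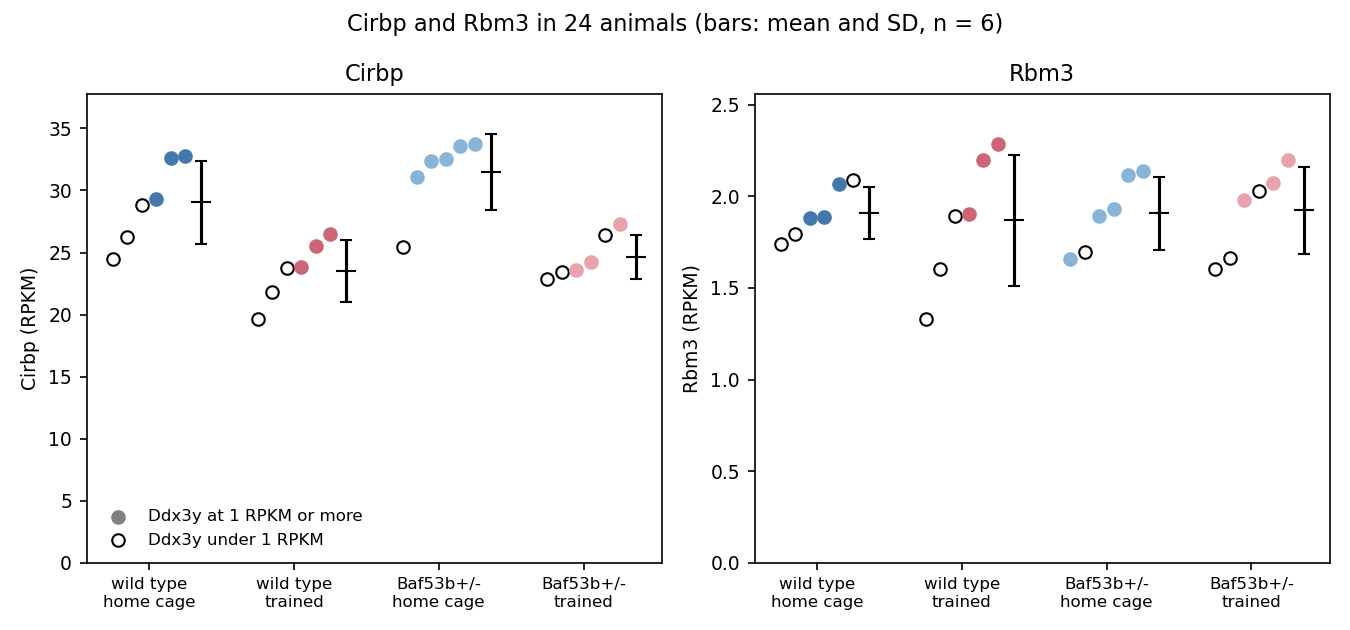
RPKM of Cirbp (left) and Rbm3 (right) in each of the 24 animals by group, sorted within a group, with bars for the mean and SD (n = 6). Filled points are animals with Ddx3y at 1 RPKM or more and open points those below. Cirbp was lower in trained animals, from a mean of 29.0 to 23.5 RPKM in wild type and from 31.5 to 24.6 in heterozygous animals, and Rbm3 means stayed between 1.87 and 1.92.

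For Rbm3 the home cage and trained animals overlapped. It ran from 1.74 through 1.88 to 2.09 RPKM in home cage wild type and from 1.33 through 1.90 to 2.29 in wild type trained animals. In heterozygous animals it ran from 1.66 through 1.91 to 2.14 in the home cage and from 1.60 through 2.01 to 2.20 after training. In each genotype the home cage range lay inside a wider trained range, and the widening was larger in wild type. The lowest value of all belonged to the trained wild type animal that was also lowest for Cirbp. The means were 1.91 ± 0.142, 1.87 ± 0.359, 1.91 ± 0.202 and 1.92 ± 0.238 RPKM in the same order of groups (SD, n = 6). The averaged training difference was -0.014 ± 0.061 (SE), with a 95% interval from -0.14 to 0.11 on the log2 scale. The ratio of Cirbp to Rbm3 accordingly went from 15.2 ± 1.67 to 12.8 ± 1.43 in wild type and from 16.6 ± 1.60 to 12.9 ± 1.40 in heterozygous animals.

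Dnajb1, at chr8:86132074-86135802, went the other way. It ran from 14.3 through 15.1 to 15.9 RPKM in home cage wild type and from 18.4 through 20.4 to 23.8 after training. In heterozygous animals it ran from 14.5 through 15.2 to 16.7 and from 18.2 through 19.4 to 21.7. No trained animal overlapped the home cage animals in either genotype, though the share of all genes that separate likewise was not counted. The rise was 0.39 ± 0.037 (SE) on the log2 scale averaged over genotypes (limma, adjusted p = 7.93e-08). The activity-induced gene Fos, which marks recently active neurons, rose from 1.89 to 14.3 RPKM in wild type and from 1.86 to 12.6 in heterozygous animals.

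Whether Baf53b dosage touched the pair was tested, since genotype played no part in their choice. Cirbp was a little higher in heterozygous than in wild type animals and Rbm3 was at the same level, and neither difference passed. In the home cage, the Cirbp difference was 0.12 ± 0.078 (SE, 95% interval -0.05 to 0.28, limma adjusted p = 0.999), and the exact permutation test over 924 splits gave p = 0.223, two-sided. In trained animals it was 0.069 ± 0.078 (-0.09 to 0.23, limma adjusted p = 0.993, exact permutation p = 0.387). For Rbm3 the differences were -0.0043 ± 0.086 in the home cage (-0.18 to 0.17, limma adjusted p = 0.999, exact permutation p = 0.948) and 0.042 ± 0.086 after training (-0.14 to 0.22, limma adjusted p = 0.995, exact permutation p = 0.695). Averaged over conditions they were 0.092 ± 0.055 for Cirbp and 0.019 ± 0.061 for Rbm3, both with a limma adjusted p of 0.999. Only 0.00807% of genes passed the genotype comparison in the home cage and the same share after training, 0.0242% in the averaged one.

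The training difference was also compared between genotypes. The interaction was -0.046 ± 0.11 for Cirbp (95% interval -0.27 to 0.18, limma adjusted p = 0.987) and 0.046 ± 0.12 for Rbm3 (-0.21 to 0.30, adjusted p = 0.987). These intervals leave room for a change in the Cirbp response nearly as large as the response itself. By limma 0% of the 12399 genes passed in this comparison, and 309 had an unadjusted p under 0.05.

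**Figure D2:**
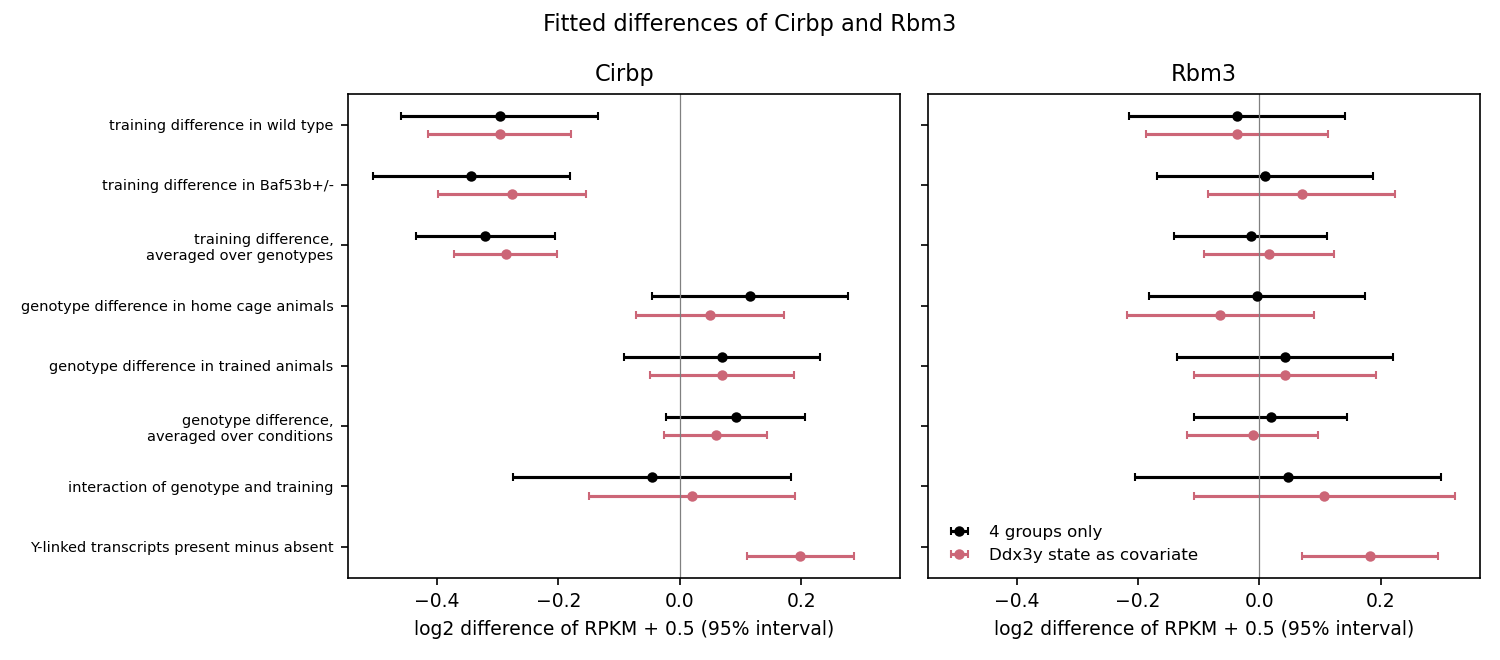
Fitted log2 differences of Cirbp (left) and Rbm3 (right) with 95% intervals, in the model with the 4 groups only (black) and with the Ddx3y state of the animal as covariate (red). The training differences of Cirbp lie near -0.3 in both models, and the genotype differences and interactions of both genes have intervals that include 0.

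Both genes were higher in animals with Y-linked transcripts. This comparison was added after the values had been seen. In the home cage, Cirbp averaged 32.3 ± 1.43 RPKM in the 8 animals with Y-linked transcripts and 26.3 ± 1.87 in the 4 without (SD). After training it averaged 25.2 ± 1.51 in 6 animals with and 23.0 ± 2.23 in 6 without. The home cage animals ran from 29.3 to 33.8 RPKM with Y-linked transcripts and from 24.5 to 28.9 without them, whereas the trained ones overlapped. How many of all genes separate the home cage animals in this way was not counted. Of the 8 home cage animals with Y-linked transcripts 5 were heterozygous, against 1 of the 4 without. Rbm3, itself X-linked, averaged 1.95 ± 0.157 and 1.83 ± 0.178 RPKM in the home cage and 2.11 ± 0.147 and 1.69 ± 0.245 after training, with overlap in both conditions.

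Within groups the difference was 0.20 ± 0.043 (SE) on the log2 scale for Cirbp and 0.18 ± 0.054 for Rbm3, and each was higher in 4 of 4 groups. In the heterozygous home cage group this rests on 1 animal without Y-linked transcripts, number 2401. For Rbm3 in home cage wild type the means were close, 1.94 with and 1.88 RPKM without them. An exact permutation of the Y-linked state within groups, over 48000 relabellings, gave two-sided p = 0.0005 for Cirbp and p = 0.00348 for Rbm3. Neither passed when adjusted over the whole table (limma adjusted p = 0.101 and 0.677), where 0.0887% of genes passed, all 11 of them on X or Y. Cirbp ranked 14th of 12399 by p, behind 11 genes of the sex chromosomes and 2 autosomal genes. Dnajb1 differed by 0.069 ± 0.037 (limma adjusted p = 0.996). Leaving out 1 trained heterozygous animal, number 2410 or 2414, took Cirbp past the threshold at a limma adjusted p of 0.0128 or 0.0347, and over all libraries left out in turn the adjusted p ran from 0.0128 to 0.621.

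The imbalance of 5 to 1 in the heterozygous home cage group therefore moves with the training difference there. With the Y-linked state as covariate the Cirbp difference was -0.30 ± 0.057 (SE) in wild type and -0.28 ± 0.059 in heterozygous animals, and the home cage difference between genotypes was 0.049 ± 0.059 in place of 0.12. Split by Y-linked state, the trained and home cage values, on which Cirbp was chosen, are given as a description. Among animals with Y-linked transcripts, the means were 25.3 against 31.6 RPKM in wild type (n = 3 and 3). In heterozygous animals with them, they were 25.04 against 32.7 (n = 3 and 5). Among wild type animals without them, the means were 21.8 against 26.5 RPKM (n = 3 and 3). The only heterozygous home cage animal without them, at 25.5 RPKM, lay within the 22.9 to 26.4 of the 3 trained ones. The fitted training difference was -0.35 ± 0.050 in animals with and -0.20 ± 0.061 in animals without Y-linked transcripts, and the difference between these was -0.14 ± 0.079 (limma adjusted p = 0.846, in a comparison where 0% of genes passed).

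For Rbm3 the training differences had opposite signs in these sets, 0.093 ± 0.065 (SE) with and -0.099 ± 0.078 without Y-linked transcripts. Their difference of 0.19 ± 0.10 did not pass (limma adjusted p = 0.846). Without the 6 choroid plexus rich libraries the Cirbp training difference was -0.26 ± 0.067 (SE) averaged over genotypes, and with the plexus score as covariate it was -0.32 ± 0.056. None of the 80 tested genes on 11 marker lists of brain, vessel and blood cells passed the averaged training comparison by limma, against 4.17% of all genes. At an unadjusted p under 0.05 there were 7, or 8.75%, against 16.8% of all genes. The averaged comparison can hide shifts that differ by genotype. In wild type the 6 dentate gyrus markers had a median difference of -0.16, with 0 above 0. In heterozygous animals it was 0.21, with 6 above 0. For the 15 tested choroid plexus markers the medians were 0.16 and -0.38, with 13 and 0 above 0. None of the 80 passed by limma in either genotype alone.

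Across animals, Cirbp and Rbm3 varied together within groups. As deviations from group means on the log2 scale over 24 animals, they had Pearson r = 0.616 (permutation p = 0.00177, adjusted over 5 relations 0.00885) and Spearman rho = 0.546 (permutation p = 0.00937, adjusted 0.0468). Without the 2 animals farthest from the Cirbp median r was 0.478. Without trained wild type animal 2421, the lowest for both genes, r was 0.507 (permutation, adjusted p = 0.0596) and no longer passed. The Y-linked state moved with this relation: with it removed as well, r was 0.327 and the adjusted permutation p 0.351. It was 0.532 over the 18 libraries that were not choroid plexus rich (adjusted permutation p = 0.317), 0.487 in the home cage animals alone (0.305) and 0.781 in the trained animals alone (0.0410).

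Within single groups of 6, r of Cirbp and Rbm3 was 0.343 in wild type home cage, 0.906 in wild type trained, 0.619 in heterozygous home cage and 0.482 in heterozygous trained animals. The highest of these had an exact permutation p of 0.00972, which became 0.194 when adjusted over the 20 relations within single groups. All 4 were positive.

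**Figure D3:**
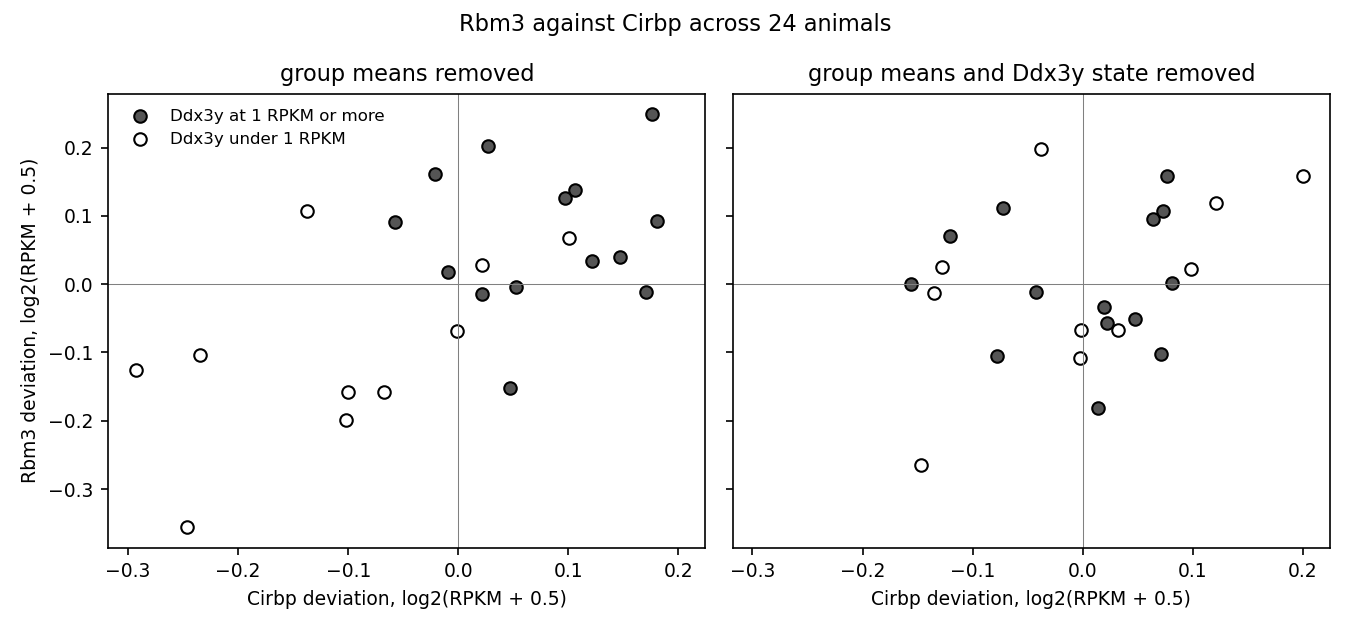
Deviations of Rbm3 (vertical) against Cirbp (horizontal) on the log2(RPKM + 0.5) scale in 24 animals, with group means removed (left) and with the Ddx3y state removed as well (right). Filled points are animals with Ddx3y at 1 RPKM or more. On the left side, where r was 0.616, they lie higher and further right on average than the open points, with overlap. On the right side r was 0.327.

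The opposite movement of Cirbp and Dnajb1 between groups was not detected within them. Deviations of Cirbp and Dnajb1 from group means had r = 0.168 and rho = 0.141 over 24 animals (permutation p = 0.465 and 0.531, adjusted over 5 relations 0.749 and 0.747), and r was 0.105 without the 2 animals farthest from the Cirbp median. In single groups r was -0.399 and 0.539 in wild type home cage and trained animals and 0.197 and 0.0178 in heterozygous ones. Rbm3 and Dnajb1 had r = 0.151 and rho = 0.127 (adjusted permutation p = 0.749 and 0.747), with r = 0.0453 without the 2 farthest animals. Fos had r = -0.0403 with Cirbp and r = -0.175 with Rbm3 (adjusted permutation p = 0.868 and 0.749), and rho = -0.0774 and -0.252 (adjusted permutation p = 0.747 and 0.569). Without the 2 farthest animals these r were -0.124 and -0.242.

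**Figure D4:**
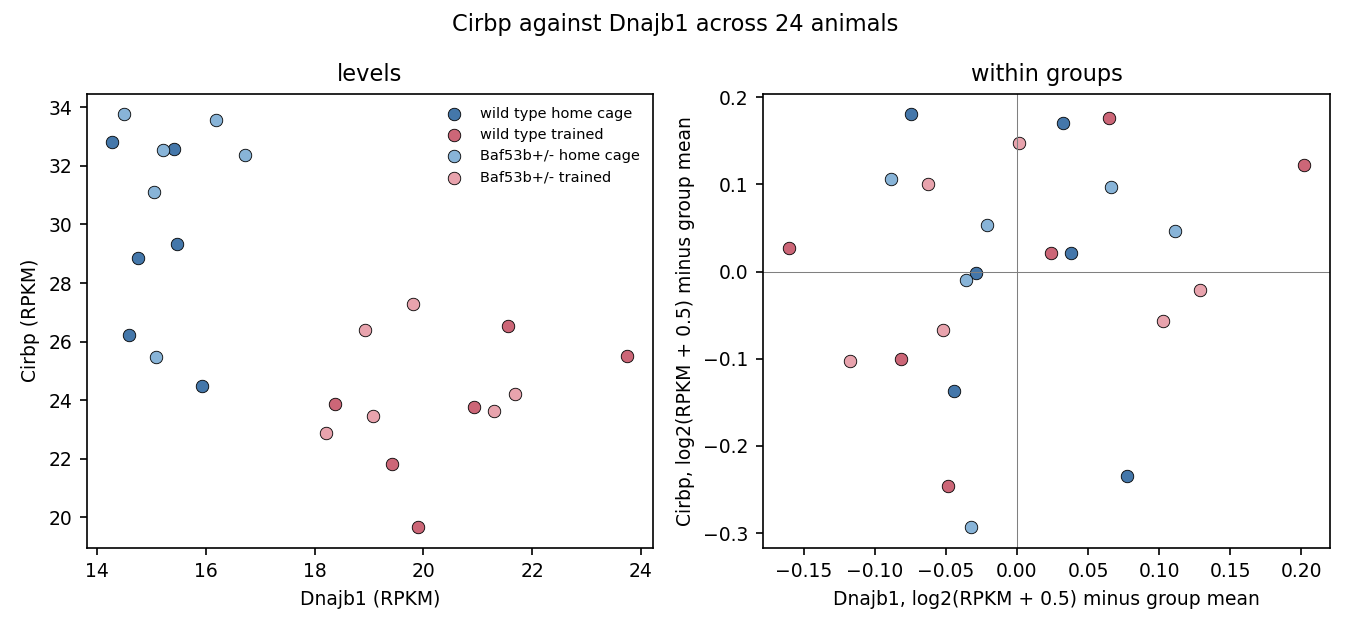
Cirbp against Dnajb1 in 24 animals, as RPKM (left) and as deviations from group means on the log2(RPKM + 0.5) scale (right), coloured by group. The trained animals lie apart at high Dnajb1, from 18.2 RPKM upward, and low Cirbp, and within groups the points show little slope (r = 0.168).

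The genes most like Cirbp within groups included several of the sex chromosomes. Over 24 animals the highest correlations of deviations were with the proteasome inhibitor gene Psmf1 (r = 0.774) and then with Y-linked Kdm5d, Eif2s3y, Ddx3y and Uty (r from 0.708 to 0.722). The lowest were with X-linked 2610029G23Rik (-0.804) and Kdm5c (-0.768), a histone demethylase gene that escapes X inactivation, then with Usp15 (-0.718), Xist (-0.712) and the prostaglandin transporter gene Slco2a1 (-0.704). With the Y-linked state removed, Psmf1 stood at 0.693 and Usp15 at -0.664, whereas Uty and Xist stood at -0.057 and -0.012. Rbm3 was 37th from the highest of 12398 other genes, and Dnajb1 was 3386th. With the Y-linked state removed, Rbm3 was 1392nd and Dnajb1 10189th.

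For Rbm3 the highest correlations were with Meis3 (r = 0.746), Lefty1, Pid1, Lin7b and B4galt2 (0.721), and the lowest with Mpdz (-0.842), Sez6l2 (-0.783), Ints4, Lman2l and X-linked Ddx3x (-0.722). These are the extremes of 12398 correlations over the same 24 libraries and are given as a description. The 25 genes on the list of heat shock factor targets had a median r of -0.207 with Cirbp, 21 of them below 0, and of -0.218 with Rbm3, also 21 below 0. The highest of the 25 with Cirbp was Dnajb1 itself, at 0.168. Genes of a list need not vary independently, so these counts too are a description. All 12398 other genes had medians of 0.0333 and -0.0382, with 5435 and 6821 below 0. With the Y-linked state removed, the heat shock medians were -0.166 and -0.152, with 18 and 17 of the 25 below 0, and those of all other genes were 0.0571 and -0.0294, with 4978 and 6792 below 0.

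The genes around the pair in the temperature response were counted in the averaged training comparison, in which 4.17% of all genes passed, 3.26% higher and 0.911% lower. Of 25 heat shock factor targets 5 rose and 0 fell. Besides Dnajb1 these were the small heat shock protein gene Hspb1 (0.44 ± 0.089, SE, on the log2 scale, limma adjusted p = 0.0037), the inducible Hsp70 gene Hspa1a (0.33 ± 0.072, limma adjusted p = 0.00808), the Hsp40 gene Dnajb4 (0.16 ± 0.020) and the Hsp90 co-chaperone gene Fkbp4 (0.10 ± 0.024). Hspb1 averaged 0.963 RPKM in wild type and 0.966 in heterozygous home cage animals, under the filter of 1 RPKM, and 1.53 and 1.48 after training. It was thus tested only because of its level in the trained groups, and its call gives no support. The list's median difference was 0.074 against 0.0036 for all genes. Hspa1b, the twin of Hspa1a and likewise inducible, did not pass (0.18 ± 0.061, limma adjusted p = 0.102), nor did the stress-inducible Hsp90 gene Hsp90aa1 (-0.0032 ± 0.040). Group means of the twins were low, from 1.49 to 2.26 RPKM. Stretches shared between the twins were not examined, so the pass of Hspa1a and the miss of Hspa1b may not be separate results. The constitutive genes Hspa8 (0.11 ± 0.040, limma adjusted p = 0.128) and Hsp90ab1 (0.0043 ± 0.022) did not pass either. None of 4 genes for heat shock factors and their binding protein passed by limma, and 0 had an unadjusted p under 0.05.

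Proteins with a cold shock domain, a different RNA-binding fold, had 1 of 6 tested genes higher, Csda at 0.15 ± 0.041 (SE, limma adjusted p = 0.0380), and 0 lower. Among 18 CLK kinases and SR proteins, whose splicing activity responds to temperature, 4 rose and 1 fell. The kinase gene Clk1 went from 13.9 ± 2.05 to 18.0 ± 1.40 RPKM in wild type and from 14.3 ± 0.833 to 17.9 ± 2.09 in heterozygous animals (SD, n = 6), and Tra2a, a splicing activator gene, rose by 0.22 ± 0.037 (SE). Srsf10 and Srsf7 rose by 0.11 ± 0.033 and 0.095 ± 0.025. Srsf5 fell by 0.21 on the log2 scale, from 41.0 ± 3.44 to 35.7 ± 2.04 RPKM in wild type and from 41.8 ± 2.49 to 35.8 ± 1.77 in heterozygous animals (limma adjusted p = 0.000752).

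Among 25 other RNA-binding proteins related in build, Rbm5, Rbm14 and Rbm39 rose by 0.093 to 0.12 on the log2 scale, and Hnrpdl fell by 0.15 on the log2 scale (limma adjusted p = 0.0295), from 47.1 ± 3.57 to 42.7 ± 2.62 RPKM in wild type (SD, n = 6). Of 11 tested genes tied to RBM3 in synapse maintenance and translation, Eif4ebp2, a repressor of cap-dependent translation, rose by 0.15 ± 0.026 (SE) and 0 fell. Rtn3, which RBM3 is known to bind and raise in mouse neurons, had -0.040 (limma adjusted p = 0.263). Of 21 clock genes, the class whose transcripts CIRBP is known to act on, Per1 (0.43 ± 0.035), Nfil3 (0.43 ± 0.053) and Bhlhe40 (0.17 ± 0.033) rose and 0 fell.

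Without the 6 choroid plexus rich libraries, where 262 genes passed instead of 517, the counts higher and lower were 4 and 0 for heat shock factor targets, 0 and 0 for cold shock domain genes, 2 and 1 for CLK kinases and SR proteins, 2 and 0 for related RNA-binding proteins, 1 and 0 for the RBM3-linked genes and 3 and 0 for clock genes. None of the 110 tested genes on these 7 lists passed a genotype comparison or the interaction by limma. At an unadjusted p under 0.05 there were 4 in the home cage (3.64%, against 3.52% of all genes), 6 after training (5.45% against 3.69%), 8 averaged (7.27% against 4.49%) and 1 in the interaction (0.909% against 2.49%).

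**Figure D5:**
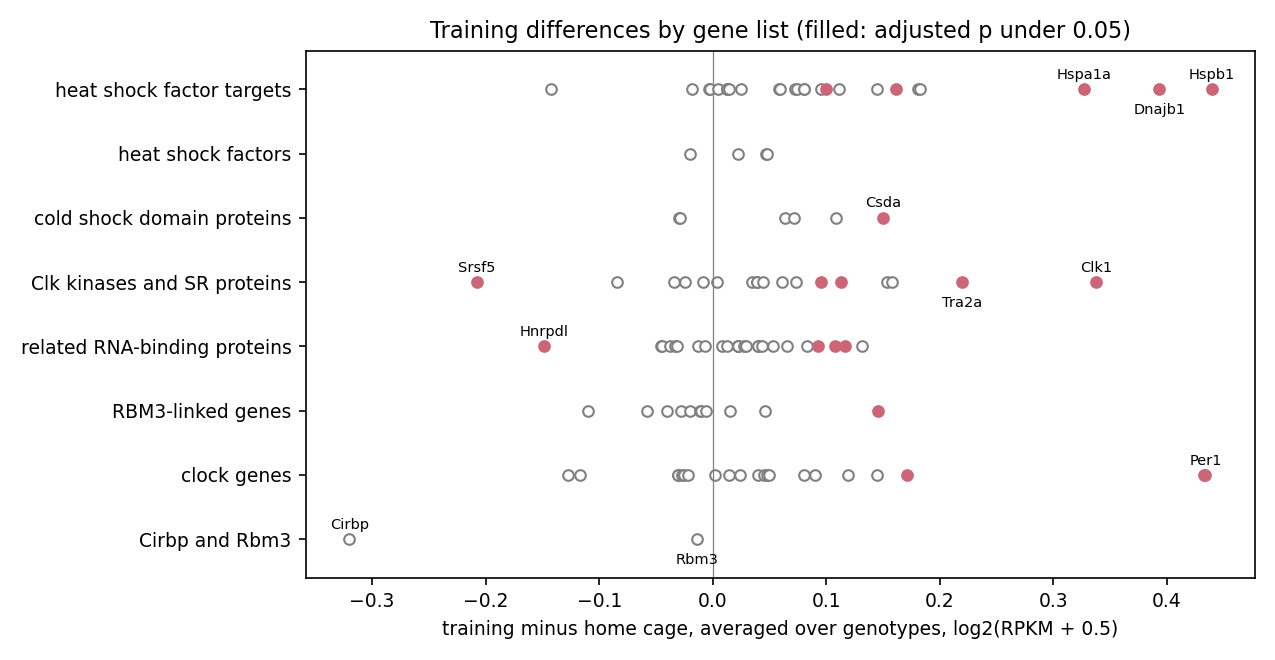
Training minus home cage difference, averaged over genotypes, on the log2(RPKM + 0.5) scale for each tested gene of 7 lists and for Cirbp and Rbm3. Filled points have a limma adjusted p under 0.05. Cirbp and Rbm3 were in the fit but are drawn open whatever their adjusted p, because the pair was chosen on this contrast. Cirbp at -0.32 lies lower than every gene drawn, with Srsf5 at -0.21 next.

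The neighbours of the pair on their chromosomes were at other levels. Midn, 9474 bases from Cirbp, went from 12.7 to 17.0 RPKM in wild type and from 12.8 to 17.6 in heterozygous animals, opposite to Cirbp. On the other side of Cirbp, 1291 bases away, 1600002K03Rik stood between 1.54 and 1.74 RPKM in the group means. Wdr13, 6128 bases from Rbm3, stood between 46.5 and 47.7 RPKM.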

How the data were processed

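RNA from 24 mouse dorsal hippocampi was sequenced with single-end reads of 50 cycles, from libraries in 4 multiplex pools, per the labels' protocols. The sources used here do not name the pool of each animal. The authors deposited RPKM values in 1 column per animal, on mm9 positions. CASAVA 1.8.2 and Bowtie 0.12.8 are listed in the submitters' processing notes. The annotation and the RPKM denominator are unnamed in the sources used here. Depth was read from the steps between low values of 603 single-exon genes, of which 64.17% to 73.14% per library came within 0.05 of whole reads. Multi-exon genes could not be turned into reads, so no count test was run.

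The log2 of RPKM plus 0.5 was fitted for 12399 genes averaging 1 RPKM or more, both members included, with limma 3.58.1 in R 4.3.3 (4 groups in 1 model, empirical Bayes with trend and robust, Benjamini-Hochberg adjustment). Signs are trained minus home cage and heterozygous minus wild type. Relations were tested by 100000 permutations of animals within groups, and single values by exact permutation, two-sided, in Python 3.11.15 with SciPy 1.17.1. The fit was tested on simulated data. Animals were called Y-linked where Ddx3y reached 1 RPKM, and libraries choroid plexus rich above the widest gap in a marker score. Alternatives changed the pseudocount, filter, scaling, covariates and libraries. Named genes were the members, Dnajb1, Fos, Actl6b, neighbours, the 5 highest and 5 lowest correlations, and up to 4 called genes per list. For CLK kinases and SR proteins all called genes were named, which is over that limit. Hspa1b, Hspa8, Hsp90aa1, Hsp90ab1 and Rtn3 were added after their values were seen. Members and lists were chosen with earlier results of these data known.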

Additional observations from a re-analysis of the deposited data

Results flagged for a closer look

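Cirbp in the heterozygous home cage animal 2401 was 25.5 RPKM, below the other 5 of its group by 0.681 of the group's range, which is over Dixon's critical value for 6 samples. It was the only animal of that group without Y-linked transcripts. Fos in the wild type trained animal 2436 was 23.4 RPKM, above the others by 0.766 of the range. Chance alone marks about 1 in 20 such groups, and 16 were examined.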

How the results depend on the processing

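The training difference of Cirbp stayed negative under all alternatives and all left-out libraries, between -0.35 and -0.26 averaged over genotypes. Cirbp was chosen on this contrast, so its steady sign is a description and no support. The training difference of Rbm3 ran from -0.039 to 0.075, on both sides of 0. The genotype differences of Cirbp kept their sign and did not pass under any alternative. Those of Rbm3 were near 0 and turned, to 0.011 in the home cage with the choroid plexus score as covariate, and in the averaged comparison to -0.011 with the Ddx3y state and to -0.0050 with both as covariates. The Cirbp interaction turned to 0.020 with the Ddx3y state, 0.0018 with it and without the choroid plexus rich libraries, and 0.028 with both covariates. None of these passed, and the cause was not tested.

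The relation of Cirbp and Rbm3 no longer passed with the Ddx3y state removed (r = 0.327), with the plexus score removed too (0.357), over the 18 other libraries (0.532) or in home cage animals alone (0.487), the last 2 with fewer animals. Relations that did not pass turned sign. With the Ddx3y state removed, and then with the plexus score removed too, r was -0.161 and -0.104 for Cirbp and Dnajb1, -0.113 and -0.193 for Rbm3 and Dnajb1, 0.334 and 0.329 for Cirbp and Fos, and 0.065 and 0.074 for Rbm3 and Fos. In home cage animals it was -0.078 for Cirbp and -0.515 for Rbm3 with Dnajb1.

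With each library left out in turn, the Rbm3 genotype difference ran from -0.032 to 0.026 in the home cage, from -0.029 to 0.092 after training and from -0.017 to 0.044 averaged. The interaction ran from -0.105 to 0.00050 for Cirbp and from -0.025 to 0.096 for Rbm3. The difference by Y-linked state in Cirbp ran from 0.17 to 0.22. The relation ran from 0.507 to 0.685 for Cirbp and Rbm3 and from -0.122 to 0.12 for Cirbp and Fos.

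Genes called in the averaged training comparison numbered 517, 339 at a minimum mean of 5 RPKM, 262 without the plexus rich libraries and 241 when the Ddx3y state was added to that. Genes called by genotype numbered 1 to 2 after training and 1 to 5 averaged. Rbm3 was not fitted at a minimum of 5 RPKM, and its low depth limits it. The Ddx3y alternatives with other covariates or fewer libraries were chosen after seeing the data. No paired analysis was possible because the groups share no replicate numbers.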
